A study of Homo sapiens with 9 samples.

Results

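The genes described here are chaperones of the heat shock families and of the mitochondria, chosen by name: HSPD1, HSPE1, HSPA9, TRAP1, HSPA8, HSP90AA1, HSP90AB1, HSPH1, STIP1 and DNAJC2. Every probe set whose single platform symbol was one of these 10 genes was taken, which gave 26 of the 54675 probe sets on the array and 9 of the 19775 genes measured. HSPA8 has no value below, because the 4 probe sets that list it also list other genes. RNA was measured in P493-6, an established human B-lymphocyte line, on 4 arrays labelled high Myc, 3 labelled low Myc and 2 labelled no Myc. All groups are the same line, and the labels give no treatment, time or culture. As background, MYC in this line sits behind a promoter that tetracycline represses, and the line also holds EBNA2, a viral transcription factor, in an estrogen-dependent form, so Myc level and these agents can change together. Nothing says that the arrays of a group came from separate cultures, so a p-value here reflects array-to-array spread that could be technical alone.

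Chaperones bind proteins that are unfolded or still being made and help them to fold, mostly in cycles driven by ATP. HSPD1 and HSPE1 form the barrel and the lid of the mitochondrial chaperonin, HSPA9 is the HSP70 of the mitochondrial matrix and pulls in imported proteins, and TRAP1 is the mitochondrial HSP90. In the cytosol HSPA8 is the constant HSP70, HSPH1 is an HSP110 that exchanges its nucleotide, STIP1 hands clients from HSP70 to HSP90, and HSP90AA1 and HSP90AB1 are the stress-inducible and the constant form of HSP90. DNAJC2 is a J-domain protein that works with an HSP70 at the ribosome exit. Heat shock factor, which binds repeats of GAA and TTC, drives many of these genes, and MYC with its partner MAX is known to bind the E-box CACGTG.

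The promoter sequences are shown because the chaperonin pair is read from a shared promoter and because the members differ in which of these letters stand there. RefSeq (GRCh38.p14) gave 15 promoter windows for the 10 genes, each of 250 bases before and 50 from an annotated start. HSPD1 runs leftward from chr2:197500274 and HSPE1 rightward from chr2:197500379, with 104 bases between the starts. Capitals mark CACGTG, which is the same on both strands.
Between HSPD1 and HSPE1, chr2:197500275-197500378, plus strand: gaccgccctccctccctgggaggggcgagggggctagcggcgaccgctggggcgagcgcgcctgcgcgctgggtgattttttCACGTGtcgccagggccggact
Before HSPA9, chr5:138575402-138575461, minus strand: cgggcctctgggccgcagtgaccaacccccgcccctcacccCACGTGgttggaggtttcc
The single match in the shared promoter begins 22 bases before the HSPE1 start and, read on the other strand, 88 bases before the HSPD1 start. The HSPA9 match begins 19 bases before its start. CACGTG stood in 3 of the 15 windows, 2 of which hold the one match in the shared promoter, and in 7.26% of all 35116 windows in the table.

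A heat shock element of 3 units, GAANNTTCNNGAA or its reverse complement TTCNNGAANNTTC, was searched on both strands. It stood in the windows of HSPD1, HSP90AA1, HSP90AB1 and HSPA8, 4 of the 15 windows, and in 0.49% of all windows. Capitals mark the element, and overlapping matches run together.
HSPD1, chr2:197500061-197500090, minus strand: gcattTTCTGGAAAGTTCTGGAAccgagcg
HSP90AA1, chr14:102087111-102087140, minus strand: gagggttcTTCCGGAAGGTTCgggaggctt
HSP90AB1, chr6:44247823-44247852, plus strand: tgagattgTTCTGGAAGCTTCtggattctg
The HSPD1 element precedes a second annotated start inside the gene and follows the first. In HSP90AA1 the match begins 88 bases before a start, and in HSP90AB1 the one shown begins 112 bases before a start and another 165 bases before it. In both genes these matches, as in HSPD1, also follow another annotated start that lies further upstream. Neither motif stood in the windows of TRAP1, HSPH1, STIP1 or DNAJC2. A match describes letters only and shows no binding.

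The values are RMA intensities on a linear scale, and differences are given as log2. RMA brings the arrays toward a common distribution, so a difference is measured against all genes of that array. Median intensities were 75.3 to 80.3, so the deposited values did not share 1 distribution exactly. MYC read 11326 to 15404 in high Myc, 1443 to 2526 in low Myc, and 2803 and 416 in no Myc. The 2803 belongs to the library labelled no Myc replicate 1, which thus held more MYC than any low Myc array and goes against its label, so results are also given without it. For GAPDH the 3′ minus the 5′ control probe set, a measure of RNA integrity, was 0.03 to 0.24 in high Myc, 0.01 to 0.15 in low Myc, and 0.25 and 0.42 in no Myc on the log2 scale. For ACTB the same measure was -0.05 to 0.19 in high Myc, -0.07 to 0.02 in low Myc, and 0.0039 and -0.011 in no Myc, where it did not stand apart. Of the B-cell markers chosen, 7 were measured and all read at a log2 of 8.19 or more on every array. Their summed intensity was 9645 to 16916 in high Myc, 11207 to 13442 in low Myc and 25601 to 33254 in no Myc. The 7 myeloid markers summed to 313 to 374 in high Myc, 280 to 331 in low Myc and 1565 to 2406 in no Myc, through LYZ and ITGAM, while CD14, CSF1R, FCGR1A, S100A8 and S100A9 stayed at a log2 of 5.84 or less on every array. Markers of T and NK cells summed to 596 to 740 in high Myc, 643 to 737 in low Myc and 691 to 810 in no Myc. In bulk RNA, fewer cells of a type and less RNA per cell cannot be told apart. The part of these differences in the results below was not tested.

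All 9 measured chaperone genes were higher in high Myc and in low Myc than in no Myc. Read from each gene's brightest probe set, the 4 mitochondrial ones had the 4 largest differences in both comparisons. In high against no Myc HSPD1 (1.86) lay just above DNAJC2 (1.83), and the order depended on the processing. Over 19 alternatives HSPD1 went down to 1.22 and TRAP1 to 1.25 there, and HSP90AB1 up to 1.71. High Myc exceeded no Myc by 0.69 to 2.63 on the log2 scale with a median of 1.83, against a median of -0.01 over all genes. Low Myc exceeded no Myc by 0.70 to 1.92 with a median of 1.29, against -0.00 over all genes. Between high and low Myc the median difference was 0.21, and DNAJC2 alone passed the test. Calls were made by limma at an adjusted p of 0.05, which took 23.2% of all genes in high against no Myc, 19.8% in low against no Myc and 3.60% in high against low Myc, counting both directions. By this rule 9 of 9 members were called higher in high than in no Myc, where 14.2% of all genes were, and 9 of 9 higher in low than in no Myc, where 11.3% of all genes were. In high against low Myc 1 of 9 was called higher, where 2.33% of all genes were. The first group lay wholly above the second for 9 of 9 members in high against no Myc, as for 20.6% of all genes. The same held for 9 of 9 in low against no Myc (20.0%) and 2 of 9 in high against low Myc (8.06%). The first 2 comparisons share the no Myc arrays, so they are not independent. Without the library labelled no Myc replicate 1, fewer members were called in each comparison. No Myc then rested on 1 array that was assumed to vary like the others. The share of all genes called higher in that fit is not given, so no count is set beside it. All 9 members kept their direction against no Myc.

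**Figure D1:**
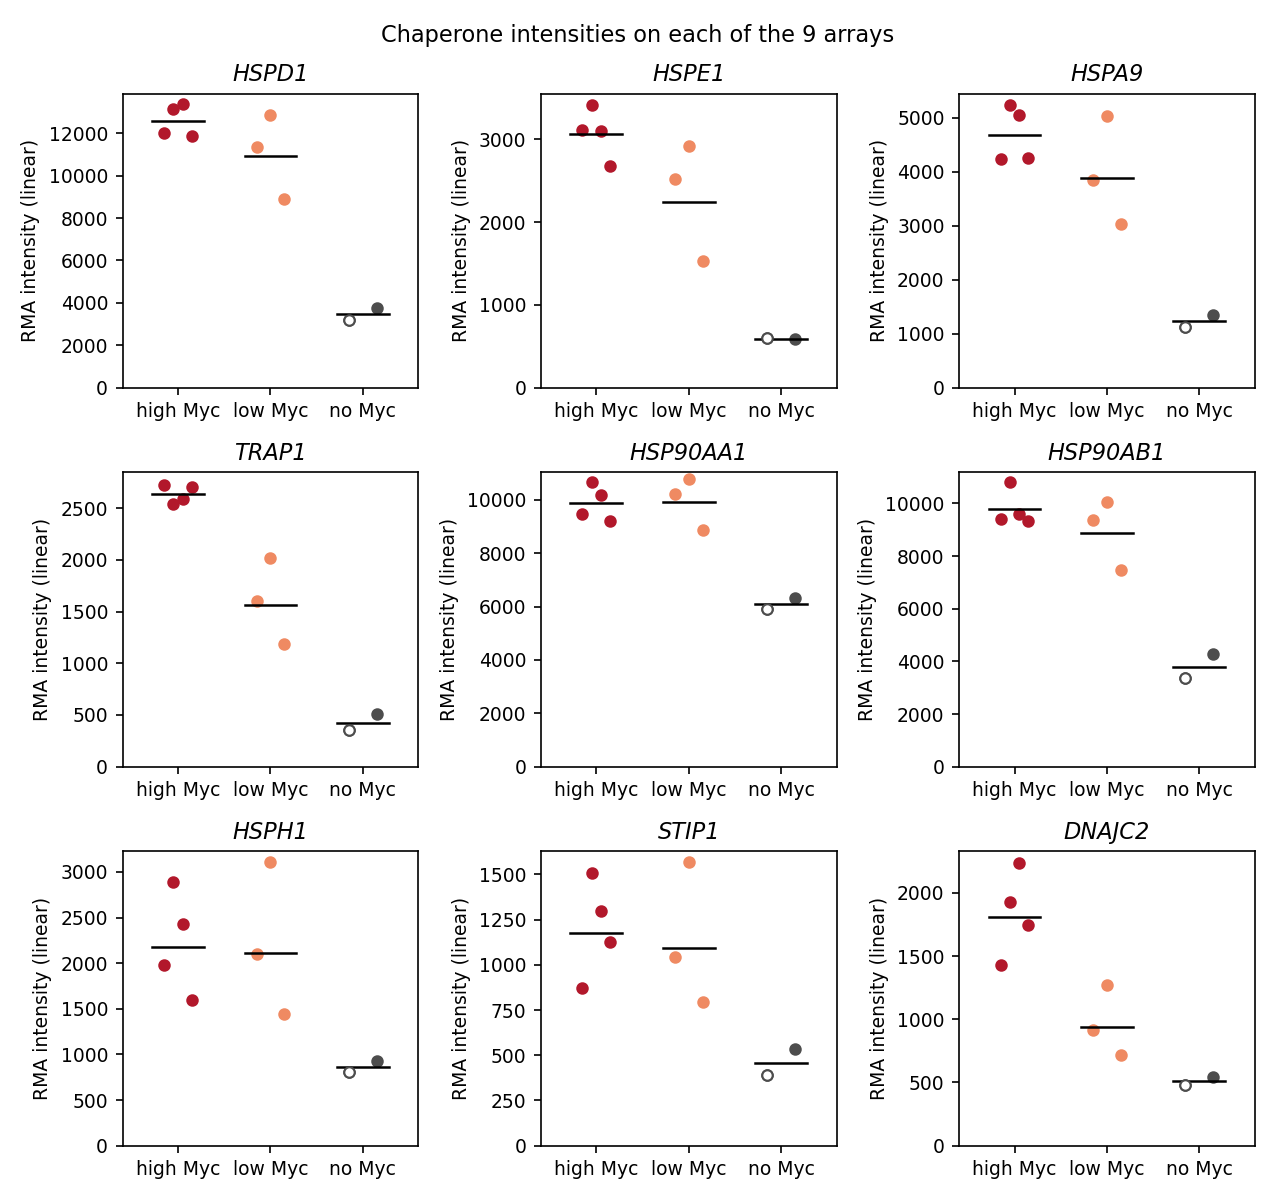
RMA intensity (linear, from 0) of the 9 measured chaperone genes on each array, with high Myc, low Myc and no Myc from left to right. Points are arrays, lines are means taken on the log2 scale, and the open point is the library labelled no Myc replicate 1. Both no Myc arrays lie below every other array in all 9 panels.

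The chaperonin subunits HSPD1 and HSPE1 were several-fold higher in high and in low Myc than in no Myc. HSPD1 read 12009, 13142, 13364 and 11859 on the high Myc arrays, 11328, 12862 and 8905 on the low Myc arrays, and 3169 and 3778 on the no Myc arrays. High and low Myc overlapped, and both lay wholly above no Myc. HSPD1 was 3.63-fold higher in high than in no Myc (log2 1.86 ± 0.15 SE, adjusted p = 0.000133) and 3.15-fold higher in low than in no Myc (1.66 ± 0.16, adjusted p = 0.000443). HSPE1 read 3114, 3415, 3107 and 2680 in high Myc, 2528, 2918 and 1530 in low Myc, and 595 and 588 in no Myc. The lowest low Myc value of this co-chaperonin was still more than any no Myc value. HSPE1 was 5.19-fold higher in high than in no Myc (2.37 ± 0.23, adjusted p = 0.000215) and 3.79-fold higher in low than in no Myc (1.92 ± 0.24, adjusted p = 0.00104).

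HSPA9, the matrix HSP70, followed the chaperonin closely. It read 4243, 5248, 5054 and 4254 in high Myc, 3845, 5042 and 3028 in low Myc, and 1130 and 1343 in no Myc. It was 3.80-fold higher in high than in no Myc (1.93 ± 0.20, adjusted p = 0.000262) and 3.16-fold higher in low than in no Myc (1.66 ± 0.21, adjusted p = 0.00102). Across the 9 arrays HSPD1 and HSPA9 had a Pearson r of 0.996, the highest among the 36 pairs of members, and HSP90AA1 and DNAJC2 the lowest, 0.814. These correlations describe 9 arrays that fall into 3 groups.

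TRAP1, the mitochondrial HSP90, had the largest difference of the 9 genes in high against no Myc, read from each gene's brightest probe set. It read 2728, 2546, 2590 and 2705 in high Myc, 1605, 2019 and 1192 in low Myc, and 358 and 508 in no Myc. The 3 groups did not overlap, with low Myc in between. TRAP1 was 6.19-fold higher in high than in no Myc (2.63 ± 0.20, adjusted p = 0.00012), which placed it 70th of 19775 genes by size, and 3.68-fold higher in low than in no Myc (1.88 ± 0.22, adjusted p = 0.00082). High Myc was 1.68-fold above low Myc (0.75 ± 0.18), which missed the threshold (adjusted p = 0.061). That difference was called with array weights (0.72, adjusted p = 0.0182) and without low Myc replicate 2 (0.93, adjusted p = 0.0257). In the other 17 of 19 alternatives it was not called, and over all 19 it ranged from 0.36 to 0.93.

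The cytosolic HSP90 genes were both higher in high and in low Myc than in no Myc. Read from each gene's brightest probe set, they differed by less than the mitochondrial members. HSP90AB1, the constant form, read 9421, 10804, 9587 and 9349 in high Myc, 9387, 10039 and 7453 in low Myc, and 3366 and 4287 in no Myc. It was 2.57-fold higher in high than in no Myc (1.36 ± 0.15, adjusted p = 0.000349) and 2.34-fold higher in low than in no Myc (1.23 ± 0.16, adjusted p = 0.0011). HSP90AA1, the inducible form, read 9477, 10668, 10167 and 9204 in high Myc, 10206, 10779 and 8858 in low Myc, and 5920 and 6306 in no Myc. It had the smallest difference of the members, 1.61-fold for high against no Myc (0.69 ± 0.11, adjusted p = 0.00193) and 1.62-fold for low against no Myc (0.70 ± 0.12, adjusted p = 0.00332). High and low Myc values of HSP90AA1 lay in the same range.

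HSPH1 and STIP1, which serve the HSP70 cycle, were also higher in high and low Myc, and had the largest SDs of the members among the high Myc arrays. HSPH1 read 1979, 2891, 2434 and 1599 in high Myc, 2105, 3108 and 1437 in low Myc, and 804 and 924 in no Myc. It was 2.52-fold higher in high than in no Myc (1.33 ± 0.31, adjusted p = 0.0121) and 2.45-fold higher in low than in no Myc (1.29 ± 0.32, adjusted p = 0.0216). STIP1 read 874, 1508, 1299 and 1124 in high Myc, 1041, 1568 and 796 in low Myc, and 392 and 537 in no Myc. It was 2.57-fold higher in high than in no Myc (1.36 ± 0.29, adjusted p = 0.00815) and 2.38-fold higher in low than in no Myc (1.25 ± 0.31, adjusted p = 0.0193). Both genes kept groups apart in these comparisons, and their log2 SDs were 0.37 and 0.33 in high Myc, against 0.05 to 0.27 for the other members. Without the library labelled no Myc replicate 1, HSPH1 was not called in high against no Myc (1.23, adjusted p = 0.105) or low against no Myc (1.19, adjusted p = 0.149), nor was STIP1 (1.13 and 1.02, adjusted p = 0.0987 and 0.17). HSPH1 was also not called against no Myc without no Myc replicate 2, in high Myc (1.43, adjusted p = 0.0556) or low Myc (1.39, adjusted p = 0.0784), and in low against no Myc without low Myc replicate 1 (1.29, adjusted p = 0.0582).

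DNAJC2, the ribosome-associated J-domain protein, was the member that differed between high and low Myc. It read 1428, 1931, 2239 and 1744 in high Myc, 913, 1272 and 714 in low Myc, and 478 and 543 in no Myc. The 3 groups did not overlap. DNAJC2 was 3.56-fold higher in high than in no Myc (1.83 ± 0.24, adjusted p = 0.000676), 1.84-fold higher in low than in no Myc (0.88 ± 0.25, adjusted p = 0.0356) and 1.93-fold higher in high than in low Myc (0.95 ± 0.21, adjusted p = 0.0442). The call between high and low Myc was close to the threshold. Among the 9 fits that left out 1 array it held only in the one without low Myc replicate 2, with differences of 0.75 to 1.17 in all 9 and an adjusted p of up to 0.143. The call of low against no Myc held in 4 of those 9 fits. Leaving out high Myc replicate 4, low Myc replicate 1, low Myc replicate 2 or no Myc replicate 2 ended it, and so did leaving out the library labelled no Myc replicate 1, which gave 0.79 and the highest adjusted p, 0.214.

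**Figure D2:**
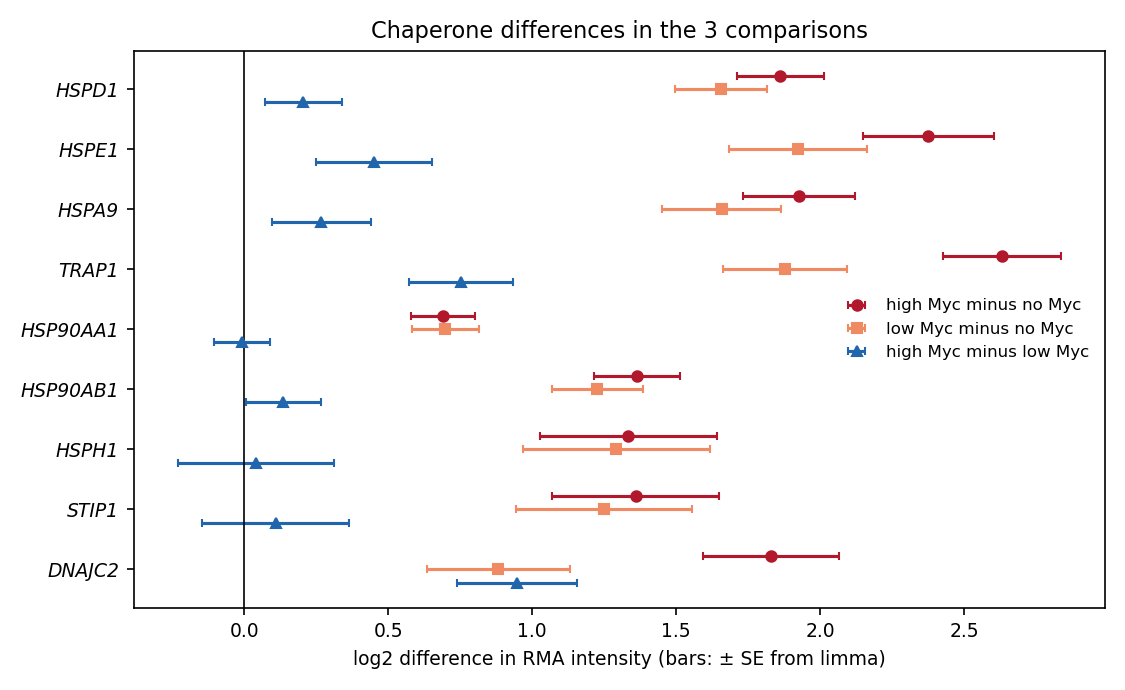
Log2 differences of the 9 chaperone genes with their limma SE, for high minus no Myc (circles), low minus no Myc (squares) and high minus low Myc (triangles). The first 2 lie at 0.69 or above for every gene, and high minus low Myc is largest for DNAJC2 (0.95) and TRAP1 (0.75).

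Between high and low Myc most members gave differences whose 95% intervals spanned 0. The interval reached from -0.10 to 0.51 for HSPD1, from -0.00 to 0.91 for HSPE1 and from -0.12 to 0.66 for HSPA9. For HSP90AB1 it was -0.16 to 0.43 and for HSP90AA1 -0.23 to 0.21. HSPH1 (-0.57 to 0.66) and STIP1 (-0.47 to 0.69) had the widest intervals of these 7 genes. For HSPE1 the interval thus reached 1.87-fold. The intervals are not adjusted for the number of genes.

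Levels of MYC and of the chaperones did not run together on every array. Within low Myc they shared an order. Replicate 2 was highest and replicate 3 lowest for all 9 members, as for 22.3% of all genes. MYC had the same order there, with 2126, 2526 and 1443 on replicates 1 to 3. The library labelled no Myc replicate 1 had more MYC than any low Myc array, and all 9 members were lower in it than on every low Myc array. The latter already follows from low Myc lying wholly above no Myc for 9 of 9 members, as for 20.0% of all genes. The share of all genes for this 1 array is not given. Against no Myc replicate 2, which read 416 for MYC, 8 of 9 members were lower in replicate 1, where 48.3% of all genes were. These are 2 arrays, and no test was made.

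The brighter probe sets of a gene moved in the same direction against no Myc. In a fit of all probe sets, 21 of the 26 were called higher in high than in no Myc, where 9.24% of all probe sets were. In low against no Myc 20 of the 26 were (6.73% of all probe sets). A mean log2 of at least 8 over the 9 arrays, a limit set after the values were seen, held for 19. High and low Myc arrays enter that mean, so the limit is not independent of the differences. An HSPA9 probe set that read 7.85 and 7.71 in no Myc passed it through the other groups. All 19 were called higher in both comparisons with no Myc, by 0.69 to 2.70 in high Myc. The share called among all probe sets above that limit is not given, so the 19 only describe the members. No member probe set was called in high against low Myc by limma, where 1.04% of all probe sets were called higher, and 2 had an unadjusted p under 0.05, those of DNAJC2 (adjusted p = 0.0687) and TRAP1 (adjusted p = 0.0892). Of the 7 dimmer probe sets, 2 were called higher in high than in no Myc, one of HSPD1 (2.04 ± 0.33, adjusted p = 0.00323) and one of HSPH1 (1.63 ± 0.42, adjusted p = 0.0279). The other 5, of HSPD1, HSPA9, TRAP1 and DNAJC2, differed by -0.12 to 0.79 and were not called. No detection calls were used, so nothing is said of presence there.

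Size depended on the probe set for HSPD1 and the cytosolic HSP90 genes. The second bright HSPD1 probe set read 10217, 11516, 9722 and 8780 in high Myc, 8897, 9589 and 5681 in low Myc, and 1574 and 1508 in no Myc. Its difference between high and no Myc was 2.70 ± 0.20, more than the 1.86 of the brightest HSPD1 probe set. In the same comparison the 4 HSP90AA1 probe sets gave 0.69, 0.76, 0.88 and 1.32, and the 3 of HSP90AB1 gave 1.36, 1.70 and 1.72. The 3 bright HSPA9 probe sets lay close together, at 1.83, 1.93 and 2.04.

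**Figure D3:**
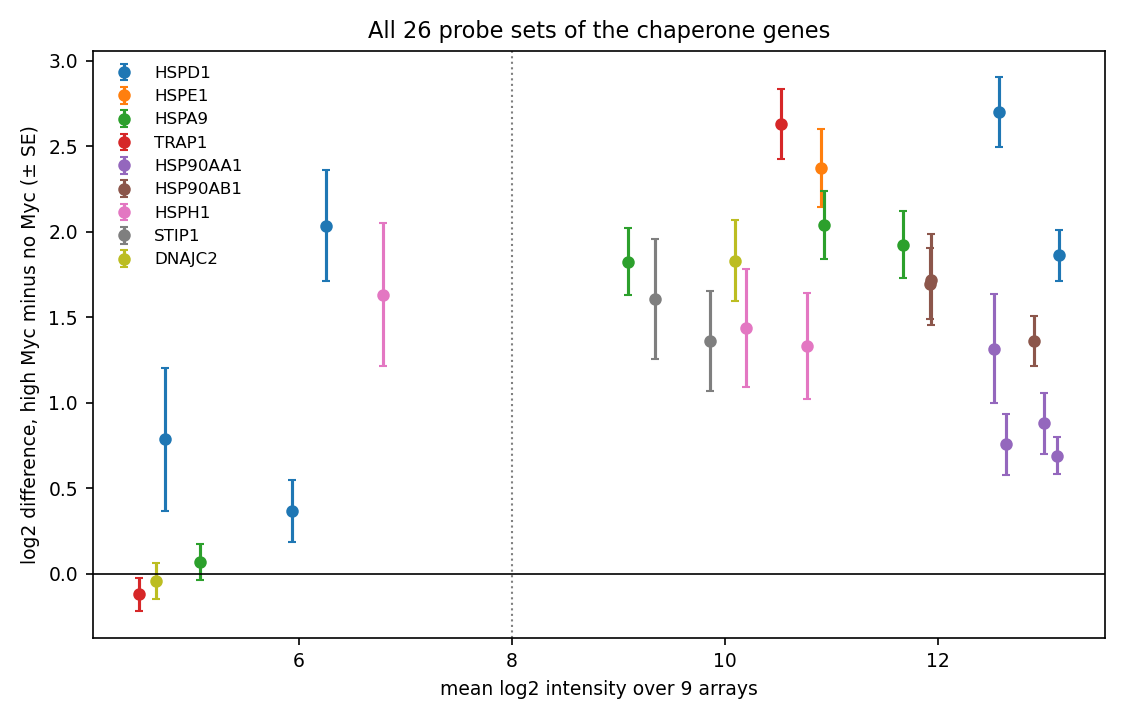
Mean log2 intensity over the 9 arrays (horizontal) and log2 difference between high and no Myc with its SE (vertical) for all 26 probe sets, coloured by gene; the dotted line marks a mean log2 of 8. The 19 probe sets right of the line all lie between 0.69 and 2.70, and 5 of the 7 left of it were not called.

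Whether partner genes changed by unequal amounts was asked from ratios within each array, for 2 pairs and 3 comparisons. The log2 ratio of HSP90AA1 to HSP90AB1 was 0.01, -0.02, 0.08 and -0.02 on the high Myc arrays, 0.12, 0.10 and 0.25 on the low Myc arrays, and 0.81 and 0.56 on the no Myc arrays. Read from each gene's brightest probe set, the 3 groups did not overlap, and the ratio was lowest in high Myc and highest in no Myc. Its mean differed by -0.67 between high and no Myc (exact two-sided permutation p = 0.0667), by -0.53 between low and no Myc (exact p = 0.1) and by -0.14 between high and low Myc (exact p = 0.0571). The first 2 are the smallest p that 4 against 2 and 3 against 2 arrays can give, and all 3 were 0.12 when adjusted over the 6 tests. With the library labelled no Myc replicate 1 left out, high minus no Myc came to -0.54. The ratio depends on the probe set. One HSP90AA1 probe set rose by 1.32 in high and 1.33 in low against no Myc. The brightest HSP90AB1 probe set rose by 1.36 and 1.23. The remaining HSP90AA1 probe sets gave 0.76 and 0.88 in high against no Myc, and 0.80 and 0.89 in low against no Myc.

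For HSPD1 and HSPE1, which share the promoter shown above, the ratio was 1.95, 1.94, 2.10 and 2.15 in high Myc, 2.16, 2.14 and 2.54 in low Myc, and 2.41 and 2.68 in no Myc. High and low Myc overlapped, as did low and no Myc. The mean ratio differed by -0.51 between high and no Myc (exact permutation p = 0.0667, adjusted 0.12), by -0.27 between low and no Myc (exact p = 0.3) and by -0.25 between high and low Myc (exact p = 0.0857, adjusted 0.12). This rests on the brightest HSPD1 probe set, and the second one differed by more between high and no Myc than HSPE1 did, 2.70 against 2.37. A direction for this pair is therefore not given.

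**Figure D4:**
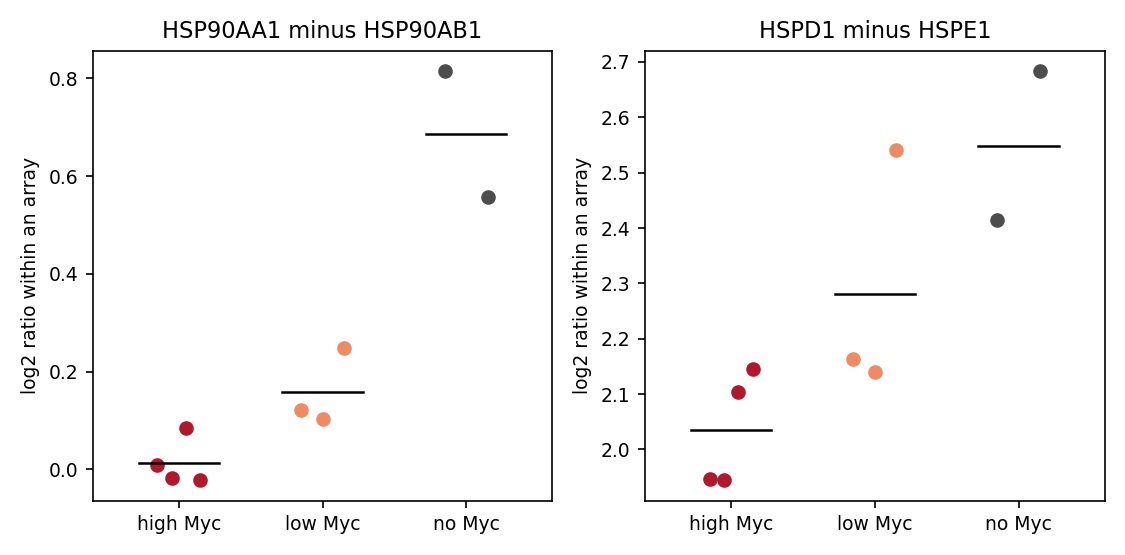
Log2 ratio within each array of HSP90AA1 to HSP90AB1 (left) and of HSPD1 to HSPE1 (right), with high Myc, low Myc and no Myc from left to right; points are arrays and lines are group means, and the axes do not start at 0. Each gene is read from its brightest probe set. The HSP90 ratio is -0.02 to 0.08 in high Myc and 0.56 and 0.81 in no Myc.

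Genes that work beside the members were read from lists, whose counts stand against 14.2% of all genes called higher and 23.2% called either way in high against no Myc, 11.3% called higher in low against no Myc and 2.33% in high against low Myc. In the mitochondria, 15 of 21 co-chaperones and proteases rose in high against no Myc with a median of 1.16, where 14.2% of all genes did. In low against no Myc, where 11.3% of all genes rose, 11 of the 21 did, or 7 without the library labelled no Myc replicate 1. With all arrays none fell in either comparison, and 1 fell in high against no Myc on omitting low Myc replicate 1, low Myc replicate 3 or high Myc replicate 2. GRPEL1, which exchanges the nucleotide of HSPA9, rose 5.24-fold in high against no Myc and GRPEL2, its relative, 3.89-fold. The matrix protease LONP1 rose 3.89-fold and AFG3L2, a protease of the inner membrane, 3.36-fold. In high against low Myc, where 2.33% of all genes rose, 4 of the 21 did. GRPEL1 rose by 1.04 ± 0.21 (adjusted p = 0.0351) and DNLZ, which keeps HSPA9 soluble, by 0.82 ± 0.10 (adjusted p = 0.004). PMPCA, a subunit of the mitochondrial processing peptidase, rose by 0.72 ± 0.10 (adjusted p = 0.00955), and PAM16 of the import motor by 0.63 ± 0.13 (adjusted p = 0.0384). With arrays left out in turn, GRPEL1 kept that call in 3 of 9 fits, PAM16 in 1, and DNLZ and PMPCA in all 9. The 4 became 2 on leaving out high Myc replicates 1, 3 or 4, low Myc replicate 1 or either array of no Myc. They became 3, beside 2 and 1 that fell, on leaving out high Myc replicate 2 and low Myc replicate 3.

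Of the HSP90 co-chaperones, 15 of 20 measured rose in high against no Myc with a median of 1.06 and none fell. RUVBL1 and RUVBL2, the ATPases of a complex that works with HSP90, rose 4.73-fold and 3.83-fold, FKBP4, an immunophilin, 3.53-fold and CACYBP 3.24-fold. In low against no Myc 13 rose, or 4 without the library labelled no Myc replicate 1. TOMM34 alone rose in high against low Myc (0.56 ± 0.11, adjusted p = 0.0357), and kept that call in 2 of 9 such fits. Of 8 exchange factors and regulators of HSP70, 7 rose in high against no Myc with a median of 0.93, led by BAG2 (4.91-fold), but 3 when high Myc replicate 3 or either array of no Myc was left out. BAG1, another exchange factor, rose in high against low Myc (0.91 ± 0.13, adjusted p = 0.00832).

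The other HSP70 and HSP110 genes did not move as 1 group. In high against no Myc 3 of 9 measured rose and 1 fell, with a median of 0.08. In low against no Myc 2 rose and 1 fell. The risers there were 0 with the library labelled no Myc replicate 1 left out, 1 on omitting no Myc replicate 2 and 4 on omitting low Myc replicate 3. HSPA4L (5.12-fold), an HSP110 relative, HSPA14 (3.20-fold), the partner of DNAJC2 at the ribosome, and HSPA4 (1.99-fold) rose. HSPA6, an HSP70 induced by stress, fell to a log2 of 8.21 to 8.68 in high Myc and 8.57 to 8.93 in low Myc, against 11.32 on both no Myc arrays. HSPA6 was thus 6.95-fold lower in high than in no Myc (-2.80 ± 0.15, adjusted p = 5.32e-05) and 6.01-fold lower in low than in no Myc (-2.59 ± 0.16, adjusted p = 0.000127), and kept both calls whichever of the 9 arrays was left out. Without the library labelled no Myc replicate 1, HSPA14 alone rose in high against no Myc, HSPA4L and HSPA4 not being called (adjusted p up to 0.0823 and 0.138), and HSPA4 was also lost without no Myc replicate 2 or high Myc replicate 3. HSPA1A and HSPA1B were not analysed here.

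Genes typical of the stress response split. Of 9 measured stress-inducible heat shock genes, 3 rose in high against no Myc (HSPA4L, CHORDC1 and BAG3) and HSPA6 fell, with a median of 0.33. HSPA4L, CHORDC1 and BAG3 also stand in the lists above. Leaving out either array of no Myc left 1 riser, and BAG3 kept its call in 4 of 9 fits with an array left out. None of 8 small heat shock proteins was called by limma in either comparison with no Myc, and 0 and 1 had an unadjusted p under 0.05 in high and in low Myc. Their medians were -0.15 for high Myc and 0.01 for low Myc. HSF1, the main heat shock factor, differed by 0.21 ± 0.14 between high and no Myc (adjusted p = 0.413), by 0.13 ± 0.15 between low and no Myc (adjusted p = 0.714) and by 0.08 ± 0.13 between high and low Myc (adjusted p = 0.896). Of the 4 measured heat shock factor genes HSBP1, a negative regulator, rose by 0.61 in high against no Myc, and it missed the threshold when either array of no Myc was left out.

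In other compartments the changes were mixed. Of 18 chaperones of the endoplasmic reticulum, 7 rose in high against no Myc (14.2% of all genes) with a median of 0.53, or 3 on leaving out either array of no Myc. In the fits lacking high Myc replicate 1 and low Myc replicate 3, 1 of the 18 fell. MANF rose 2.97-fold and SDF2L1 2.77-fold. CANX, a lectin chaperone, rose 2.18-fold and HSPA5, the HSP70 of that compartment, 2.11-fold. Of 19 J-domain proteins outside mitochondria and this compartment, 5 rose and 2 fell with a median of 0.10, where 23.2% of all genes were called either way. These counts were 2 and 1 with the library labelled no Myc replicate 1 left out, and 3 and 3 on omitting no Myc replicate 2. DNAJC6, known for uncoating clathrin vesicles, rose in high against no Myc (1.45 ± 0.24, adjusted p = 0.00248) and in high against low Myc (1.31 ± 0.22, adjusted p = 0.0166, and 0.0563 without high Myc replicate 4). DNAJB2 fell in high against no Myc by 1.08 on the log2 scale. Of 9 nascent-chain and prefoldin factors 5 rose and PFDN5 fell (-0.48 ± 0.09, adjusted p = 0.00423). NAA15 was up 3.99-fold, PFDN2 2.87-fold and PFDN4 2.79-fold. All 7 measured subunits of the cytosolic chaperonin CCT rose in both comparisons with no Myc, with medians of 1.48 for high Myc and 1.40 for low Myc.

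**Figure D5:**
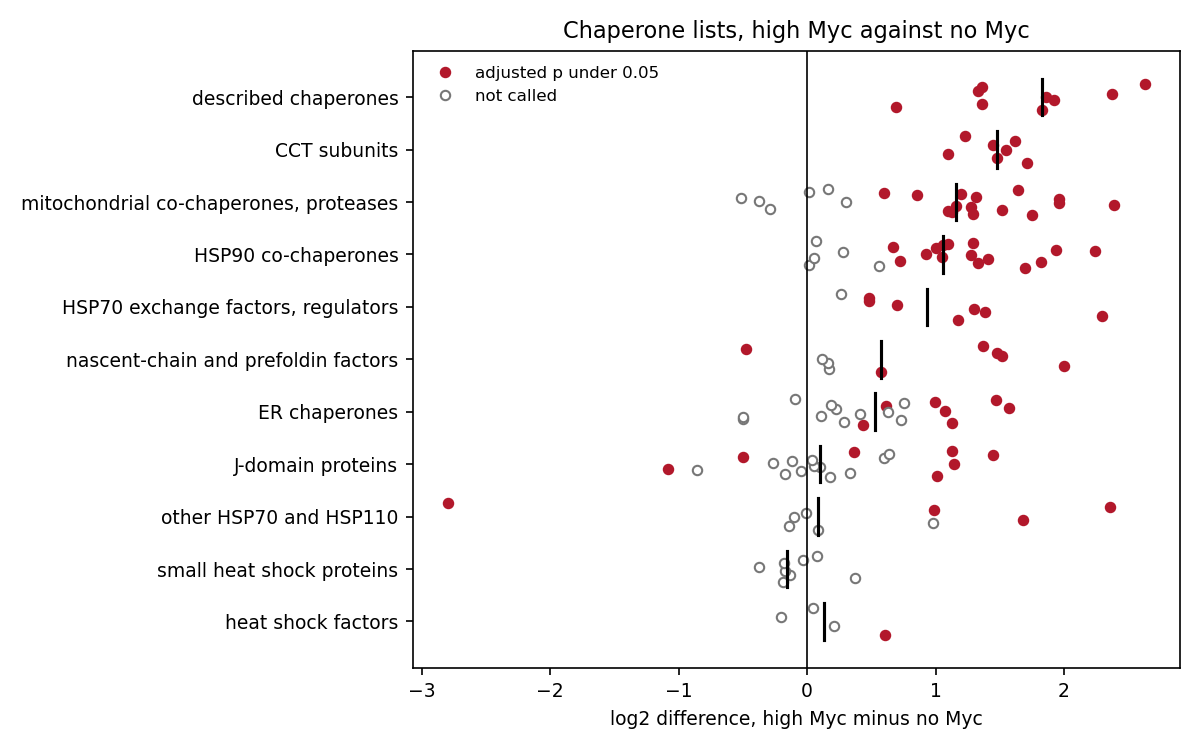
Log2 difference between high and no Myc for each gene of 11 chaperone lists; filled points passed an adjusted p under 0.05, open points did not, and bars are list medians. The described chaperones, the CCT subunits, the HSP70 exchange factors and regulators and the HSP90 co-chaperones lie wholly right of 0. HSPA6 is the leftmost point at -2.80.

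The genes with patterns most like the members were taken by Pearson correlation over the 9 arrays. For HSPD1 they were MRPL37 of the mitochondrial ribosome (r = 0.998), HNRNPAB, an RNA-binding protein (0.998), TEX30 (0.998), the glycolytic enzyme ENO1 (0.998) and the purine enzyme PAICS (0.997). For HSP90AB1 they were PLK4, a kinase of centriole duplication (0.998), OXCT1, an enzyme of ketone use (0.997), MRPL3 of the mitochondrial ribosome (0.996), MRPL37 (0.995) and PDHA1, a subunit of pyruvate dehydrogenase (0.995). These values mostly restate the step between no Myc and the other groups.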

How the data were processed

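The authors deposited intensity values on a linear scale, 1 per probe set and array, summarised by RMA per the submitters' processing notes; its version and any genome build are not given in the sources used here. Per the labels' protocols, extraction used Qiagen RNeasy. Log2 of the intensity was used. Names came from the platform annotation, with symbols updated through Entrez identifiers: 41097 of 54675 had 1 symbol, 1801 several and 11777 none. A gene was read from its probe set with the highest mean, which gave 19775 genes. All 9 arrays entered 1 fit of group means by limma 3.58.1, run in R 4.3.3 (lmFit, contrasts, eBayes, 6 residual degrees of freedom, two-sided, Benjamini-Hochberg over all genes or all probe sets, threshold 0.05). The procedure was tested on simulated data. Ratios of 2 genes were tested by exact permutation over arrays; 4 against 3 arrays can give p below 0.05, the other comparisons cannot. Members, lists and tests were chosen with earlier results of these data known. The rule for names took all members, MYC, HSF1, HSF2, and the 5 genes most like HSPD1 and HSP90AB1. It also took up to 4 called genes of largest difference per list and comparison. HSF2 was not among the measured genes, and not every gene the rule allowed is named. Same-numbered arrays deviated together in some pairs and not in others (r of -0.31 to 0.47), so the numbers were not taken as pairs. Alternatives were other normalizations, a filter, the median probe set, other priors and weights, fewer groups, a block for the replicate number, tighter call rules and leaving out each array. Leaving out arrays for the lists was chosen after seeing the data. Precision is limited by the number of arrays.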

Additional observations from a re-analysis of the deposited data

How the results depend on the processing

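Every member kept its direction in high against no Myc and low against no Myc under all 19 alternatives, and the call was lost in 5 of 171 and 20 of 171 cases. Beside the losses given with the genes, these were HSPD1 (0.63, adjusted p = 0.293) and DNAJC2 (0.41, adjusted p = 0.103) in low against no Myc with the median probe set, which takes in the dim ones. HSPH1, STIP1 and DNAJC2 were lost there with only the 2 groups compared (adjusted p = 0.0521, 0.0515 and 0.078), DNAJC2 with the replicate block (given below), and the rest fell to stricter thresholds. Repeating quantile normalization lowered the difference between high and no Myc for all 9 members, as for HSPD1 (1.86 to 1.69) and HSP90AA1 (0.69 to 0.55). Median centring raised it for all 9, to 1.90 and 0.73 for these genes. All 9 stayed called under both. In high against low Myc, the members called higher were 2 with array weights and 0 with median centring, the median probe set, only the 2 groups, the replicate block or either stricter threshold, and 0 to 2 with 1 array left out. Differences near 0 there changed sign: HSPH1 with quantile normalization repeated (-0.050), HSP90AA1 with the replicate block (0.026), and with 1 array left out HSP90AA1 (-0.089 to 0.053), HSPH1 (-0.24 to 0.32) and STIP1 (-0.12 to 0.37). The HSPD1 to HSPE1 ratio between high and low Myc turned to 0.14 with the median probe set. The cause was not tested.

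Genes called in high against no Myc, 4584 in all, were 3048 at an adjusted p under 0.01, 2230 with at least 2-fold and 2714 to 4868 with 1 array left out; probe sets, 9314, were 5416, 4591 and 4749 to 9872. In low against no Myc 3919 genes became 2188, 1913 and 1855 to 4381, and 7869 probe sets 3725, 3989 and 3121 to 8620, or 5219 with only the 2 groups. In high against low Myc 712 genes became 143, 328 and 228 to 1204, 1684 with array weights and 406 with only the 2 groups; 856 probe sets became 144, 452 and 242 to 1898, 1396 and 411. The replicate number as a block gave 154 genes and 156 probe sets in high against low Myc and lost DNAJC2 there (0.97, adjusted p = 0.13) and in low against no Myc (0.91, adjusted p = 0.0732); it left 9 and 8 members called in the comparisons with no Myc and changed no other member's call. Same-numbered arrays correlated at -0.31 to 0.47, so the numbers are not shown to pair them.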
